A study of Mus musculus with 72 samples.

Results

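Testosterone is made in Leydig cells, which lie between the seminiferous tubules of the testis, and the genes described here are 8 that carry out or control that work: Lhcgr, Nr5a1, Star, Cyp11a1, Cyp17a1, Hsd17b3, Srd5a1 and Insl3. They were taken by symbol from 7 gene count tables of testis, ovary and liver, in which 37108 symbols appear in all, and all 8 had a row in every table. The mice were conceived naturally or by in vitro fertilization (IVF). Naturals of the F1 generation came from CF-1 females mated with SJL/B6 males, without embryo transfer. F1 IVF mice came from eggs of superovulated CF-1 females fertilized with SJL/B6 sperm, cultured to blastocysts and transferred to pseudopregnant CF-1 females. F2 mice were offspring of F1 males, IVF or natural, and untreated CF-1 females, so that no F2 mouse was itself cultured. Of the F1 testis libraries, 4 natural and 6 IVF were fetal (E18.5), 5 natural and 5 IVF were from 12-week males, and 4 natural and 6 IVF from 39-week males. All F2 tissues were taken at 12 weeks: 5 natural and 7 IVF testes, 4 natural and 5 IVF ovaries, 5 male livers of either line, and 5 natural and 6 IVF female livers. Pups of the 12- and 39-week F1 groups were delivered by C-section, later in gestation for IVF than for naturals, and fostered. Natural and IVF F1 mice therefore differed in superovulation, culture and transfer together, and the adult groups also in day of delivery, which cannot be told apart.

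The steroid pathway begins when luteinizing hormone binds LHCGR and raises cyclic AMP in the cell. Cholesterol is then carried to the inner mitochondrial membrane and cut, and the product is turned step by step into androgen. A fetal population of Leydig cells masculinizes the fetus and is followed after birth by an adult population. Mouse fetal Leydig cells make little of the last enzyme of testosterone synthesis, HSD17B3, which fetal Sertoli cells supply. In the ovary the same early steps run in theca and luteal cells.

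Lhcgr, at chr17:88716384-88792059 of GRCm38, encodes the receptor for luteinizing hormone. Nr5a1, at chr2:38692656-38714542, encodes SF-1, a nuclear receptor that switches on steroidogenic genes and is also made in Sertoli cells. Star, at chr8:25808474-25815982, encodes the protein that moves cholesterol into mitochondria. Cyp11a1, at chr9:57998024-58027031, encodes the enzyme that cuts the cholesterol side chain. Cyp17a1, at chr19:46667165-46673000, encodes the enzyme that makes androgen precursors. Hsd17b3, at chr13:64058274-64089262, encodes the enzyme that converts androstenedione to testosterone. Srd5a1, at chr13:69573449-69611485, encodes an enzyme that reduces testosterone to dihydrotestosterone. Insl3, at chr8:71689252-71690577, encodes a peptide hormone of Leydig cells that drives descent of the testis.

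Start-site sequences are shown for Hsd17b3 and Lhcgr, whose levels moved together between adult testes, and for Insl3, whose level did not move with theirs. Each window runs from 250 bases before a start site to 50 bases after it, in GRCm38.p6 and on the strand of the gene. For Hsd17b3 and Lhcgr that site lies inside the gene bounds given above, not at their end. Capitals mark the letters AAGGTC or AGGTCA on either strand, the outer parts of AAGGTCA, the 7-letter motif that SF-1 is known to bind. The windows lie at chr13:64089152-64089451 on the minus strand, chr17:88791965-88792264 on the minus strand and chr8:71689002-71689301 on the plus strand.
Hsd17b3: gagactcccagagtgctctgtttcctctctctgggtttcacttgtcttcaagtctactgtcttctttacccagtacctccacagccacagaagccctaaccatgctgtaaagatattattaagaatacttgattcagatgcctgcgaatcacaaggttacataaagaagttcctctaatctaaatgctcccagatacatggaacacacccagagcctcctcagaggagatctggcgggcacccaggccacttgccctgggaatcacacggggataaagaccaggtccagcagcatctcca
Lhcgr: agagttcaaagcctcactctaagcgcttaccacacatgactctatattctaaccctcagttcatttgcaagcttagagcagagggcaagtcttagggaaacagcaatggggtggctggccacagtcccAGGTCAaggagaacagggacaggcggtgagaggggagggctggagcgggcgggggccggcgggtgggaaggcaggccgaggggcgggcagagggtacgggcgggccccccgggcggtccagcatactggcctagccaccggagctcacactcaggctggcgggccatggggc
Insl3: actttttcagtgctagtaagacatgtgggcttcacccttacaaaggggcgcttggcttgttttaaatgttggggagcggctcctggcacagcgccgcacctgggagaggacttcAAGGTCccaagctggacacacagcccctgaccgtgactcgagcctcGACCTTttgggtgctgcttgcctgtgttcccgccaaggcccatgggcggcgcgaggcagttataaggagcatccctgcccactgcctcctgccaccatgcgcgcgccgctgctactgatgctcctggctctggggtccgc

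The full 7-letter motif was in 0 of the 6 windows held for 5 of the genes, and in 4.72% of 32851 windows of all genes. One or the other 6-letter part, searched after the full motif gave no match, was in 3 of the 6 windows and in 22.8% of all windows. It stood once in the Lhcgr window, with its first base 122 bases before the start site of that window. It stood 2 times in the Insl3 window and once in the second of the 2 Cyp11a1 windows. A match is a description of the letters, and no match says only that these letters are not in these windows.

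Libraries held 543745 to 90441392 counts, with 2904727 to 27346141 in testis and 11489461 to 49192804 in ovary. Levels are given as CPM, each count divided by the size of its library after TMM scaling within the table, and can be compared within a table only. A gene was called changed when edgeR's quasi-likelihood test gave a Benjamini-Hochberg adjusted p under 0.05 over all genes tested and the change was over 1.5-fold. Defining markers of the labelled tissues were present. Summed spermatid markers were 10391 to 26446 CPM in adult testes, summed oocyte markers were 159 to 283 CPM in ovaries, and Alb was 41088 to 206033 CPM in livers. E18.5 natural testis 1 held 372 CPM of Alb, a liver gene, against at most 10.5 CPM in the IVF fetal testes. F2 natural testes 1 and 2, 39-week natural testes 1 and 2 and F2 IVF testes 3 and 4 were closer pairs than any others in adult testis, with a chi-square per gene of 2.78 to 3.53 against at least 6.45, and were kept as separate libraries. The 39-week naturals were uneven: naturals 1 and 2 stood at 44.0 to 55.9 from naturals 3 and 4. Pairs of F1 12-week naturals stood at 7.37 to 11.1.

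Fetal and adult naturals differed most in Nr5a1. On a scale shared by the 13 natural F1 testes, Nr5a1 was 262, 250, 266 and 267 CPM at E18.5 and 41.5, 53.0, 51.8, 42.9 and 38.6 CPM at 12 weeks. Every fetal library stood far above every adult one, and the level fell by 2.52 on the log2 scale (SE 0.15, edgeR quasi-likelihood adjusted p = 2.57e-11). Of the 8 genes, 5 fell and 1 rose between these ages, while 77.2% of all 16859 genes tested were called by edgeR, and DESeq2 called 7 of the 8 and 77.4% of all. The share of all genes without overlap between these ages was not computed, so a lack of overlap between ages is a description only. Since fetal and adult testes were in separate tables, age cannot be told apart from the table or its run. Fewer Leydig cells and less RNA per cell cannot be told apart in bulk tissue either. The paper's methods describe RNA from a testis cross section, but also snap-frozen seminiferous tubules of adults. How much tissue between the tubules entered the adult libraries is therefore not known.

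Hsd17b3, the testosterone-forming enzyme, was 115, 122, 112 and 101 CPM at E18.5 and 30.2, 33.5, 27.6, 29.1 and 27.97 CPM at 12 weeks. The ages did not overlap, and the level fell by 1.93 on the log2 scale (SE 0.21, edgeR adjusted p = 1.35e-07). Lhcgr, the hormone receptor, was 21.5, 40.7, 46.6 and 70.4 CPM in the fetal testes and 12.3, 11.3, 15.1, 12.7 and 11.6 CPM at 12 weeks. It fell by 1.82 on the log2 scale (SE 0.33, edgeR adjusted p = 5.34e-05), and the fetal libraries were spread over a wider range than the adult ones. Cyp11a1, the first enzyme of the pathway, was 296, 309, 476 and 542 CPM in the fetal testes and 127, 202, 121, 146 and 97.1 CPM at 12 weeks. It fell by 1.55 on the log2 scale (SE 0.24, edgeR adjusted p = 9.35e-06) with no overlap.

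Star and Cyp17a1 were set apart from that group by an overlap between the ages. Star, the cholesterol carrier, was 116, 141, 266 and 377 CPM at E18.5 and 98.5, 182, 153, 152 and 111 CPM at 12 weeks. The ages overlapped, and the fall of 0.69 on the log2 scale (SE 0.27, edgeR adjusted p = 0.0258) was no longer called without E18.5 natural 3 or 4 or 12-week natural 1 or 5, at 0.32 to 0.62 on the log2 scale, or with no filter on low counts, with an edgeR adjusted p of 0.0626. Cyp17a1, the androgen-precursor enzyme, was 185, 352, 788 and 1027 CPM at E18.5 against 482 to 786 CPM at 12 weeks. Its fetal libraries lay on both sides of the adult ones, and the log2 difference was 0.05 (SE 0.38, edgeR adjusted p = 0.910).

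Insl3, the peptide hormone, went the other way. It was 49.9, 36.2, 44.1 and 66.5 CPM at E18.5 and 87.1, 91.7, 111, 79.4 and 98.9 CPM at 12 weeks. All adult libraries were above all fetal ones, and the level rose by 0.93 on the log2 scale (SE 0.20, edgeR adjusted p = 0.000294). The reductase gene Srd5a1 was 9.92 ± 1.15 CPM (SD, n = 4) at E18.5 and 14.5 ± 2.38 CPM (SD, n = 5) at 12 weeks, a log2 difference of 0.55 (SE 0.24, edgeR adjusted p = 0.0450) with no overlap that stayed under the 1.5-fold limit, beside 82.3% of all genes with an adjusted p under 0.05.

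These directions depend on the scale, because TMM factors were 1.40 to 1.54 in fetal testes and 0.859 to 0.883 at 12 weeks. Scaled to the library total instead, the median of all genes shifted by -0.75 on the log2 scale, and 40.1% rather than 54.5% of calls were increases. The falls of Nr5a1, Hsd17b3, Lhcgr, Cyp11a1 and Star were called on both scales. Insl3 came to 0.18 (SE 0.20, edgeR adjusted p = 0.420) on the library total, and Cyp17a1 and Srd5a1 turned to -0.73 and -0.20 without being called. The ratio of 2 genes within a library does not depend on the scale: log2 of Insl3 over Nr5a1 was -2.44 ± 0.33 (SD, n = 4) at E18.5 and 1.04 ± 0.22 (SD, n = 5) at 12 weeks, with no overlap. Nr5a1 itself fell, and genes called as falling also rose on this ratio. Their means at E18.5 and 12 weeks were -0.38 and 1.58 for Star, 0.59 and 1.57 for Cyp11a1, -1.21 and -0.61 for Hsd17b3, and -2.65 and -1.84 for Lhcgr. The ratio shows Insl3 relative to Nr5a1 only, not a rise of Insl3 itself.

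**Figure D1:**
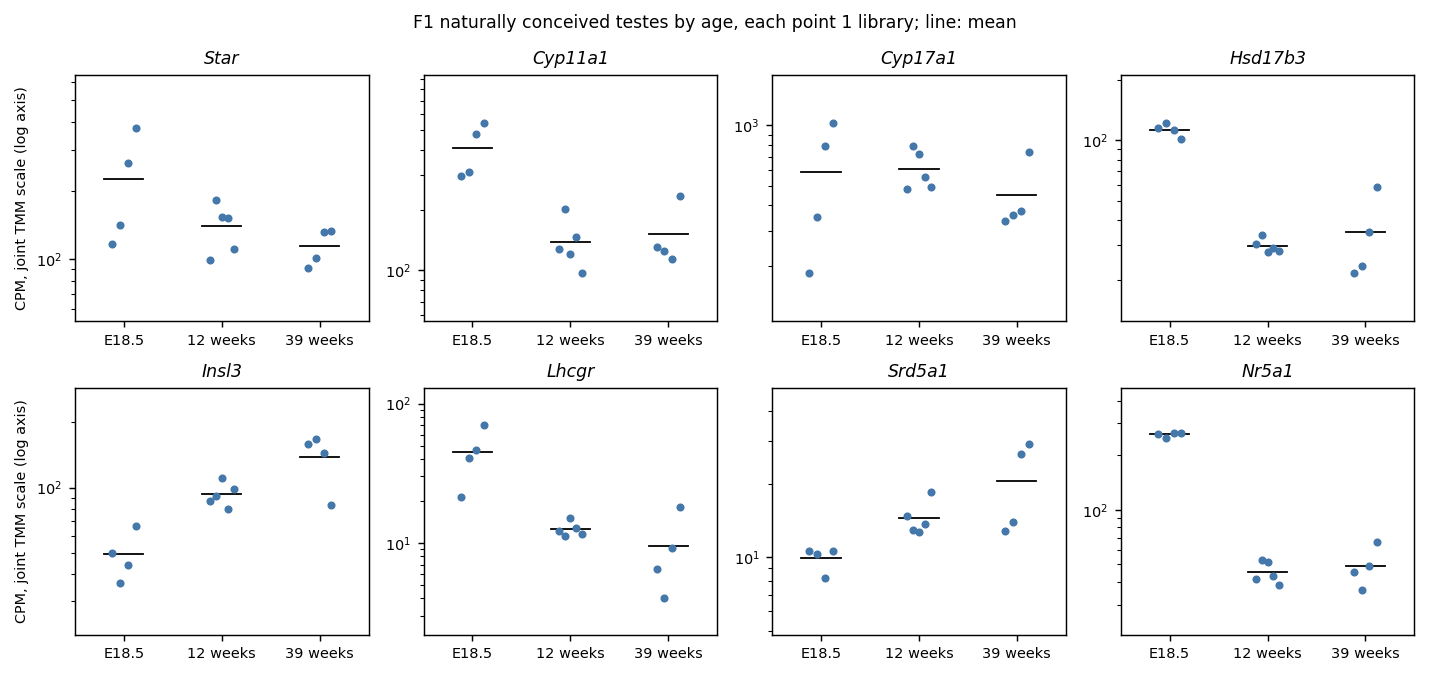
CPM of each gene (log axis, scale shared by the 13 libraries) in F1 naturally conceived testes at E18.5, 12 and 39 weeks, with 1 point per library and a line at the mean. Nr5a1, Hsd17b3, Lhcgr and Cyp11a1 lie higher at E18.5 than at 12 weeks with no overlap, Insl3 lies lower, and Cyp17a1 overlaps. The share of all genes without overlap was not computed.

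Markers of the cell populations also differed between these ages, in which 42.1% of all genes tested rose and 35.1% fell. Fetal Leydig cell markers fell in 4 of 4 tested, with a median log2 change of -5.39 against 0.17 over all genes. Dlk1 went from 826 to 1.07 CPM, with an edgeR adjusted p of 1.79e-16. Adult Leydig cell markers rose in 3 of 4 tested, among them Hsd3b6, a gene of adult Leydig cells for the enzyme between CYP11A1 and CYP17A1, from 1.05 to 55.7 CPM (edgeR adjusted p = 1.22e-10). Hsd3b1, its sister gene, fell from 468 to 94.0 CPM (edgeR adjusted p = 8.80e-07). Of 9 steroid enzymes tested beside the 8 genes, with Hsd3b6 and Hsd3b1 among them, 2 rose and 7 fell, and all 4 electron donors of these enzymes fell. Of 9 genes of cholesterol supply, 1 rose and 6 fell, and of 12 regulators 10 fell. Spermatid markers rose in 6 of 6 with a median log2 change of 12.66, Sertoli cell markers fell in 8 of 10 and endothelial markers in 4 of 5. The part of these changing cell shares in the values of the 8 genes was not tested.

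Between 12 and 39 weeks none of the 8 genes was called by edgeR or by DESeq2, with 0.0475% of all genes called by edgeR and 1.68% by DESeq2, and 2 of the 8 had an unadjusted p under 0.05, beside 15.6% of all. Insl3 was 159, 167, 145 and 83.2 CPM at 39 weeks against the 12-week values above. Of the 39-week libraries, 3 were above every 12-week one and natural 4 was within their range (log2 difference 0.57, SE 0.19, edgeR adjusted p = 0.184). Without natural 4 the difference was 0.75 with an edgeR adjusted p of 0.0214, which is called. That same testis was the highest of its group in every other gene of the 8, though only narrowly in Star (133 CPM against 132 CPM in natural 3). Srd5a1 was 20.6 ± 8.39 CPM (SD, n = 4) at 39 weeks, a log2 difference of 0.51 (SE 0.23, edgeR adjusted p = 0.295). The median SD of log2 CPM over all genes tested was 0.39 in 39-week naturals and 0.21 in 12-week naturals, which made changes harder to call.

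Divided by gene length (CPM per kilobase of exon), Cyp17a1 and Insl3 led in the natural adult testes of all 3 tables. In 12-week naturals Cyp17a1 stood at 178 ± 40.3 and Insl3 at 122 ± 15.4 (SD, n = 5), and these overlapped. Star at 27.4, Cyp11a1 at 23.4 and Hsd17b3 at 17.3 followed, each overlapping its neighbour, then Nr5a1 at 8.70, Srd5a1 at 4.04 and Lhcgr at 1.34, each clear of the one before. At E18.5 the first 6 genes overlapped in turn, from Cyp17a1 at 301 ± 203 through Cyp11a1, Hsd17b3, Insl3 and Nr5a1 to Star at 77.4 ± 43.0, and Lhcgr at 8.29 ± 3.88 (SD, n = 4) and Srd5a1, which overlapped each other, lay below all 6. In the ovary the order was different: Cyp11a1 stood at 1429 ± 217 and Star at 1057 ± 540 per kilobase (SD, n = 4), these overlapped, and Cyp17a1 followed at 210, Nr5a1 at 76.0, and Hsd17b3 at 0.0311.

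The comparison of IVF with natural within each table asks whether conception changed these genes. At E18.5 none of the 8 was called by edgeR or DESeq2 and none had an unadjusted p under 0.05, where 17.7% of all did, with 0.221% of 15406 genes called by edgeR and 0.863% by DESeq2. Star was 161, 196, 372 and 545 CPM in naturals and 267 to 768 CPM in IVF testes with a median of 476. The groups overlapped over most of their range (log2 difference 0.70, SE 0.43, edgeR adjusted p = 0.437). Cyp17a1 was 257, 490, 1103 and 1483 CPM in naturals and 596 to 2207 CPM in IVF testes with a median of 1213 (log2 difference 0.70, SE 0.59, edgeR adjusted p = 0.588). Lhcgr was 29.9, 56.7, 65.3 and 102 CPM in naturals against 54.7 to 122 CPM, median 87.5, in IVF testes (log2 difference 0.52, SE 0.35, edgeR adjusted p = 0.478). Cyp11a1 was 411, 431, 666 and 784 CPM in naturals against 487 to 1057 CPM, median 708, in IVF testes (log2 difference 0.36, SE 0.28, edgeR adjusted p = 0.544). For all 8 genes the groups overlapped, while they did not for 6.1% of all genes. Natural 1, the testis with Alb, was the lowest natural for Star, Cyp11a1, Cyp17a1 and Lhcgr. Without it the log2 differences were 0.49 for Star, 0.40 for Cyp17a1 and 0.29 for Lhcgr. Without natural 4 instead, they were larger, at 1.09 for Star, 1.13 for Cyp17a1 and 0.82 for Lhcgr, and again not called.

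The other fetal levels were closer between the groups. Insl3 was 69.3, 50.4, 61.7 and 96.0 CPM in naturals and 45.7 to 85.3 CPM, median 58.7, in IVF testes (log2 difference -0.20, SE 0.20). Hsd17b3 was 160, 170, 158 and 147 CPM in naturals and 96.2 to 180 CPM, median 164, in IVF testes (log2 difference -0.04, SE 0.14). Srd5a1 was 14.7, 14.3, 11.5 and 15.3 CPM against 10.2 to 14.7 CPM, median 11.9 (log2 difference -0.22, SE 0.16).

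The fetal naturals differed from each other unevenly by gene. The highest natural over the lowest was 5.77-fold for Cyp17a1, 3.37-fold for Star and 3.38-fold for Lhcgr, but 1.11-fold for Nr5a1 and 1.16-fold for Hsd17b3. The SD of log2 CPM was 1.15 for Cyp17a1 and 0.061 for Nr5a1, and 95.1% and 2.36% of genes had a lower one. In the IVF fetuses the SDs were 0.80 and 0.19, above those of 97.9% and 56.9% of genes. Nr5a1 was 364, 348, 372 and 385 CPM in naturals and 266 to 387 CPM in IVF testes with a median of 318. Most IVF values lay below every natural one, 4 of 6, and the difference was not called (log2 difference -0.17, SE 0.090, edgeR adjusted p = 0.347). Summed Sertoli cell markers, which fetal Nr5a1 and Hsd17b3 may share a cell with, were 3721 to 5362 CPM in naturals and 2643 to 4062 CPM in IVF testes, with 10 of 10 lower in IVF and none called. Their part in the Nr5a1 value was not tested.

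At 12 weeks in F1, Insl3 had the only adjusted p under 0.05. It was 70.4, 74.3, 89.5, 64.3 and 80.1 CPM in naturals and 101, 95.2, 99.8, 103 and 121 CPM in IVF testes. Every IVF testis stood above every natural one, a log2 difference of 0.46 (SE 0.088, edgeR adjusted p = 0.0197) that was under the 1.5-fold limit, so it was not called. Without 1 library at a time the adjusted p was 0.0145 to 0.0802, and it passed 0.05 without natural 4 (0.0802) or IVF 4 (0.0574). The groups were also apart in 3.07% of all 20113 genes tested, and 0.746% of them had an adjusted p under 0.05. Hsd17b3 was 24.4, 27.2, 22.4, 23.6 and 22.6 CPM in naturals and 27.0, 47.7, 33.5, 25.5 and 50.4 CPM in IVF testes. Of the IVF values, 3 were above every natural one and all 5 were above the natural median (log2 difference 0.62, SE 0.18, edgeR adjusted p = 0.175). DESeq2 called it, with an adjusted p of 0.0153.

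With the call rule, edgeR called none of the 8 genes and 0.199% of all genes in F1 12-week testes, DESeq2 called 1 of the 8 and 0.348% of all, and 2 of the 8 had an unadjusted p under 0.05, beside 12.9% of all. Of the 8 log2 differences 7 were positive, with a median of 0.26 against 0.01 over all genes. Cyp11a1 was 103, 164, 97.7, 119 and 78.6 CPM in naturals and 104, 121, 191, 184 and 171 CPM in IVF testes (log2 difference 0.45, SE 0.24, edgeR adjusted p = 0.486). Cyp17a1 was 390, 637, 583, 449 and 400 CPM in naturals and 392, 912, 630, 504 and 712 CPM in IVF testes (log2 difference 0.36, SE 0.25, edgeR adjusted p = 0.608). These 2 enzymes overlapped between the groups, and so did the genes that follow. Nr5a1 differed by 0.16 (SE 0.11) and Star by 0.06 (SE 0.28) on the log2 scale. Lhcgr was 9.14 to 12.3 CPM in naturals and 3.36 to 15.2 CPM in IVF testes, with nearly the same mean. Summed adult Leydig cell markers were 218 to 289 CPM in naturals and 284 to 471 CPM in IVF testes, and 4 of 4 tested were higher in IVF with none called. Fetal Leydig cell markers summed to at most 14.5 CPM in either group.

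At 39 weeks the groups overlapped for all 8 genes, beside 3.32% of all genes where they did not, and none was called by edgeR or DESeq2 or had an unadjusted p under 0.05, where 10.5% of all did, beside 0.00996% of genes called by edgeR and 0.458% by DESeq2. Insl3 was 123, 130, 114 and 64.9 CPM in naturals and 53.5 to 152 CPM in IVF testes with a median of 79.6 (log2 difference -0.26, SE 0.29, edgeR adjusted p = 0.814). Cyp17a1 was 259, 277, 297 and 576 CPM in naturals and 149 to 507 CPM in IVF testes with a median of 352 (log2 difference -0.02, SE 0.30). Srd5a1 was 9.92, 10.8, 20.9 and 22.7 CPM in naturals against 7.75 to 18.9 CPM, median 9.45, in IVF testes (log2 difference -0.44, SE 0.30). The log2 differences of the other 5 genes were -0.09 to 0.27. The wide spread of the 39-week naturals, given above, made differences harder to call here too.

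**Figure D2:**
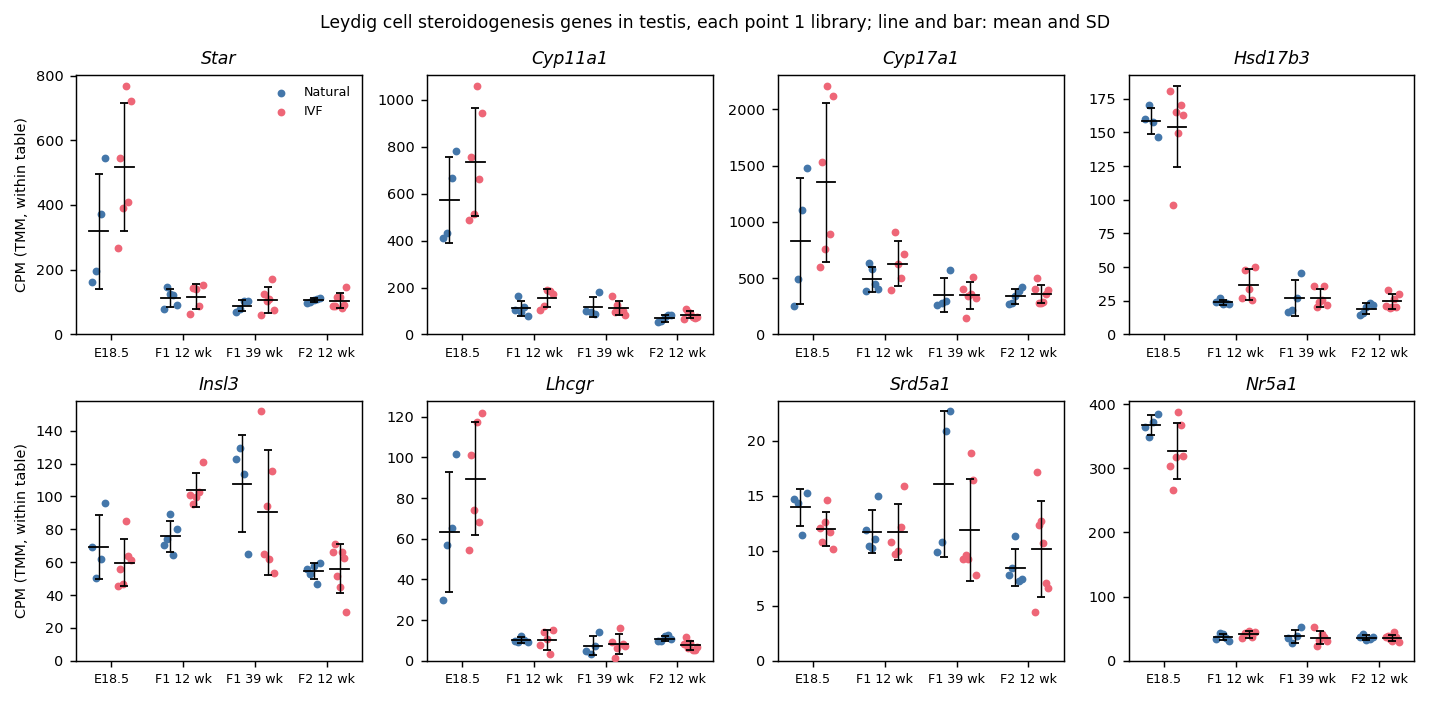
CPM (linear axes from 0) of the 8 genes in the testis libraries of each table, natural in blue and IVF in red, with the mean and SD of each group. Insl3 at 12 weeks in F1 is the panel where natural and IVF points do not overlap.

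In F2 testes, from sons of IVF or natural fathers, Lhcgr and Hsd17b3 stood farthest from 0 relative to their error, and neither was called. Which sons shared a father is not given. Lhcgr was 9.64, 9.51, 12.1, 12.6 and 10.6 CPM in naturals and 5.43 to 11.8 CPM in IVF testes with a median of 6.64. All but IVF 2 were below every natural testis (log2 difference -0.52, SE 0.17, edgeR adjusted p = 0.132), and without IVF 2 the difference was -0.66 with an adjusted p of 0.0132, which is called. Hsd17b3 was 14.5, 16.1, 20.2, 23.6 and 22.0 CPM in naturals and 19.9 to 33.3 CPM, median 21.2, in IVF testes (log2 difference 0.35, SE 0.16, edgeR adjusted p = 0.335). None of the 8 genes was called by edgeR or DESeq2 in F2 testes, where 0.914% and 1.57% of all genes were, 2 of the 8 had an unadjusted p under 0.05, beside 13.9% of all, and none had an adjusted p under 0.05, beside 1.61% of all. The log2 differences of Star, Nr5a1, Insl3 and Cyp17a1 were -0.03 to 0.08, with SEs of 0.088 to 0.19. Cyp11a1 was 53.0, 55.5, 74.7, 83.2 and 82.5 CPM in naturals and 67.2 to 109 CPM, median 75.2, in IVF testes (log2 difference 0.26, SE 0.15). Srd5a1 was 7.27 to 11.4 CPM in naturals and spread from 4.44 to 17.1 CPM in IVF testes (log2 difference 0.26, SE 0.29).

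The enzyme beside the 8 genes in this pathway, 3-beta-hydroxysteroid dehydrogenase, had 2 genes called in F2 testes. Hsd3b6 was 53.2, 54.1, 52.5, 23.4 and 46.3 CPM in naturals and 4.84 to 15.6 CPM in IVF testes with a median of 6.17. No IVF testis reached the lowest natural, as for 1.93% of all genes with groups apart in either direction, and the level fell by 2.48 on the log2 scale (SE 0.33, edgeR adjusted p = 0.00382). Hsd3b1 was 51.2, 52.8, 44.97, 74.6 and 48.3 CPM in naturals and 73.7 to 134 CPM, median 102, in IVF testes. It rose by 0.89 on the log2 scale (SE 0.16, edgeR adjusted p = 0.0187), with 6 of 7 IVF testes above every natural one. That call was lost without natural 1, 2 or 5, with edgeR adjusted p of 0.0639, 0.0601 and 0.0531, and with the close library pairs summed, at 0.108, while the Hsd3b6 call held in each of these. Hsd3b6 and Hsd3b1 were named because they were called, and they were the only such genes in the testis tables among the steroid enzymes and the other companion genes of the pathway.

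The sum of both genes was not called, at 100.3 ± 5.15 CPM (SD, n = 5) in naturals and 109 ± 16.1 CPM (SD, n = 7) in IVF testes (log2 difference 0.12, SE 0.084, edgeR adjusted p = 0.576). Hsd3b6 made up 51.0, 50.6, 53.9, 23.9 and 49.0% of the sum in naturals and 3.50 to 15.9% in IVF testes with a median of 5.51%. The share was 23.4 to 44.0% in F1 12-week naturals and 35.2 to 58.4% in F1 12-week IVF testes, and the difference of the IVF effects on Hsd3b6 between F2 and F1 at 12 weeks was -3.28 on the log2 scale (SE 0.52, edgeR adjusted p = 0.00200), in a comparison that called 0.0323% of all genes. For Hsd3b1 that difference was 0.57 (SE 0.39, edgeR adjusted p = 0.836). These genes share 2.05% of the 50-base stretches of the Hsd3b1 transcript and 2.11% of those of Hsd3b6. How reads from the shared stretches were assigned was not tested. Every F2 natural except number 4 was close to an even split.

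**Figure D3:**
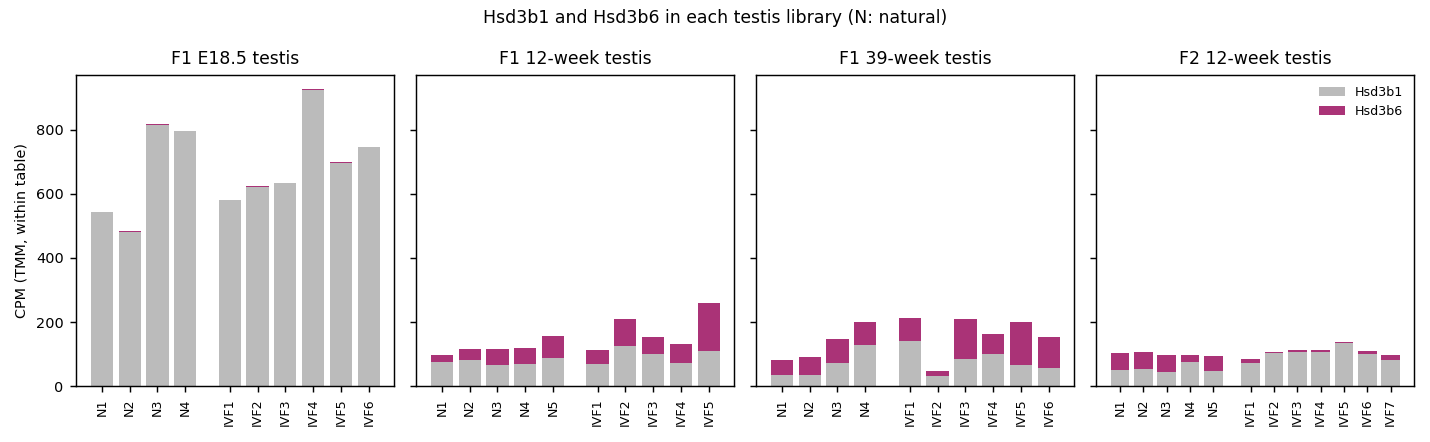
CPM of Hsd3b1 (grey) and Hsd3b6 (purple) stacked in each testis library of the 4 tables, natural (N) and IVF. In F2 the purple part is 3.50 to 15.9% of the bar in IVF and 23.9 to 53.9% in naturals, and at E18.5 it is at most 0.510%.

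The tests of whether IVF effects on the 8 genes differed between testis tables called none by edgeR or DESeq2. The nearest were Star, between 12 weeks and E18.5, at -0.84 (SE 0.42, edgeR adjusted p = 0.257), and Insl3, between 39 and 12 weeks, at -0.71 (SE 0.32, edgeR adjusted p = 0.244). One of the 8, Insl3, had an unadjusted p under 0.05, in the 39-week minus 12-week comparison, where 16.6% of all genes did. Of all genes 5.41% were called for 12 weeks minus E18.5, 1.4% for 39 minus 12 weeks and 0.0323% for F2 minus F1 at 12 weeks. DESeq2 called 3.44%, 4.71% and 0.172%.

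Across 32 adult testis libraries, deviations of log2 CPM from the group mean were compared for the 28 pairs of genes with a two-sided permutation test of 100000 resamples within groups. Cyp17a1 and Hsd17b3 moved together most closely, with r = 0.78 and rho = 0.78 (adjusted p = 0.00028 for both, on a p of 1e-05, the smallest the resamples can give, and r = 0.76 without the 2 libraries farthest from the median). Cyp17a1 and Lhcgr had r = 0.73 and rho = 0.68 (adjusted p = 0.0113 and 0.0028 by permutation, r = 0.55 without those 2). The same r was 0.75 in F1 12-week, 0.80 in 39-week and 0.75 in F2 testes for Cyp17a1 with Hsd17b3, and 0.57, 0.86 and 0.53 for Cyp17a1 with Lhcgr. Of the 28 pairs, 7 had an adjusted p under 0.05 and 24 had a positive r.

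The pairs of Nr5a1 varied between tables, and the difference between tables was not tested. Lhcgr with Nr5a1 had r = 0.66 (adjusted p = 0.0141 by permutation), Cyp17a1 with Nr5a1 had r = 0.65 (adjusted p = 0.0134 by permutation) and Hsd17b3 with Nr5a1 had r = 0.58 (adjusted p = 0.0174 by permutation), while in F2 testes alone the values were -0.24, -0.09 and -0.08, with none of the 3 at an adjusted p under 0.05 in any table alone. Insl3 with Nr5a1 had r = 0.31 over all 32 libraries, and 0.32, 0.15 and 0.76 in the 12-week, 39-week and F2 testes alone (adjusted p = 0.0759 in F2 by permutation). Star with Nr5a1 had r = 0.88 in F1 12-week testes (adjusted p = 0.0319 by permutation) and r = -0.83 in F2 testes (adjusted p = 0.049 by permutation). Cyp11a1 with Hsd17b3 had r = 0.51 (adjusted p = 0.0496 by permutation), with r = 0.33 without the 2 farthest libraries and an adjusted p of 0.093 with the close library pairs summed, which left 6 pairs under 0.05. Insl3 had r between -0.29 and 0.31 with each of the other 7 genes, none with an adjusted p under 0.05. Star and Insl3 had r = -0.29 over all 32 libraries and -0.91 in the 12 F2 testes (adjusted p = 0.0676 by permutation). Leydig cell content and expression per cell were not separated.

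**Figure D4:**
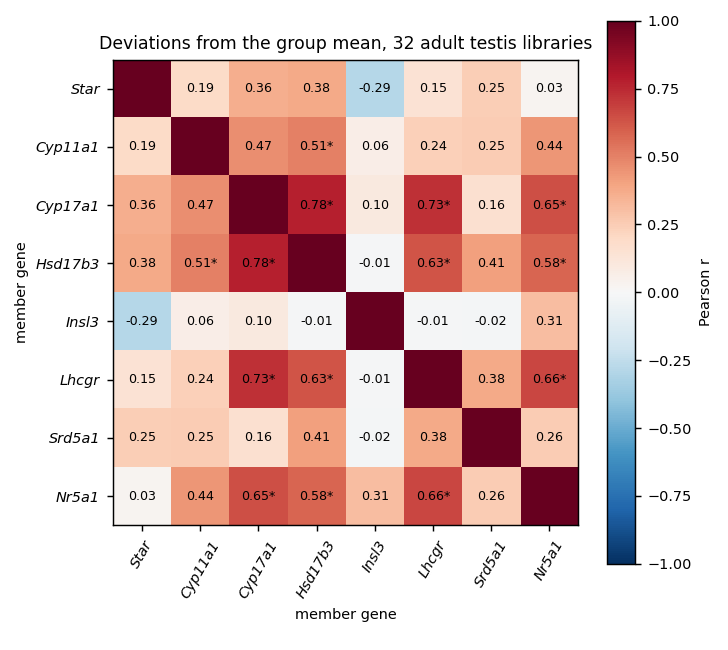
Pearson r between the 8 genes over 32 adult testis libraries after the group mean was removed from log2 CPM, in colour from -1 to 1, with an asterisk at an adjusted permutation p under 0.05. Cyp17a1, Hsd17b3, Lhcgr and Nr5a1 form the block of high values, and the Insl3 row stays between -0.29 and 0.31.

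The genes outside the 8 that were most like their mean over these 32 libraries, by Pearson r as a description with no test, were Tmem164 at 0.90, Scd2 at 0.88, AU021092 at 0.86, Acsbg1 at 0.86 and Gpt2 at 0.83, of 18196 genes of at least 1 CPM. Over the 9 ovaries, where Hsd17b3 was left out, they were Tcf12 at 0.96, Efhd1 at 0.94, Dand5 at 0.93, Sbk1 at 0.93 and Ap2b1 at 0.92, of 15253. The mean does not stand for each gene. In ovary, r with the mean of the others was -0.41 for Srd5a1, -0.36 for Lhcgr, -0.11 for Insl3, -0.03 for Cyp17a1 and 0.02 for Star. For Cyp11a1 and Nr5a1 it was 0.52 and 0.68. In adult testis it was 0.03 for Insl3, 0.23 for Star and 0.37 to 0.78 for the others.

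In F2 ovaries Cyp11a1 stood higher in every IVF library than in any natural one, and edgeR did not call it. It was 6902, 5387, 7752 and 7411 CPM in naturals and 11965, 9624, 13292, 9621 and 8364 CPM in IVF ovaries. The groups did not overlap, as for 3.64% of all 16502 genes tested, but the log2 difference of 0.62 (SE 0.16) had an edgeR adjusted p of 0.340. DESeq2 called it, with an adjusted p of 0.0110. Star was 4760, 2591, 7322 and 2710 CPM in naturals and 8829, 5150, 9122, 7577 and 4448 CPM in IVF ovaries, where naturals 1 and 3 lay inside the IVF range (log2 difference 0.69, SE 0.35, edgeR adjusted p = 0.502).

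edgeR called none of the 7 genes tested in ovary and 0% of all genes, with 1 of the 7 at an unadjusted p under 0.05, beside 10.6% of all, and DESeq2 called 1 of the 7 and 0.533% of all. Hsd17b3 was not tested, since no ovary library held more than 3 counts of it. Cyp17a1, a gene of theca cells in the ovary, was 580, 558, 64.0 and 1123 CPM in naturals and 746, 661, 390, 88.4 and 159 CPM in IVF ovaries, with both groups spread over almost the same range. Lhcgr was 91.2 to 230 CPM in naturals and 53.2 to 443 CPM in IVF ovaries. Nr5a1 was 280 to 373 CPM against 306 to 365 CPM (log2 difference 0.02, SE 0.093), the smallest SE of the 7 genes tested. Srd5a1 was 28.5, 21.1, 46.7 and 34.5 CPM in naturals and 11.1, 23.8, 31.7, 32.8 and 33.3 CPM in IVF ovaries (log2 difference -0.30, SE 0.33). Insl3 was 1.97 to 8.83 CPM in naturals and 1.22 to 7.31 CPM in IVF ovaries (log2 difference -0.53, SE 0.51).

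No other gene of the pathway was called in ovary. Of all genes 47.7% were higher in IVF, 10.6% had an unadjusted p under 0.05 and 3.64% had no overlap. Of 9 genes of cholesterol supply, 8 were higher in IVF, 6 had an unadjusted p under 0.05 and 4 had no overlap. Of 12 regulators 5 were higher and 7 lower, and of 9 steroid enzymes 7 were higher and 2 lower. Of the 7 Leydig cell genes tested, 4 were higher and 3 lower. Scarb1, the HDL receptor, was 1869 ± 371 CPM (SD, n = 4) in naturals and 3260 ± 349 CPM (SD, n = 5) in IVF ovaries (log2 difference 0.80, edgeR adjusted p = 0.214). It is named for its size, after its values were seen. All 4 electron donors were higher in IVF with none called, the adrenodoxin gene Fdx1 at 779 ± 95.2 CPM (SD, n = 4) and 1228 ± 270 CPM (SD, n = 5). Beside these, summed luteal cell markers were 8425 to 15297 CPM in naturals, median 11605, and 9776 to 15739 CPM in IVF ovaries, median 14803. Of the 4 luteal markers 3 were higher in IVF and 1 lower, with none called. Among them 1 had an unadjusted p under 0.05 by edgeR and 1 had no overlap. Macrophage markers summed to 131 to 200 CPM and 119 to 146 CPM with 6 of 6 lower in IVF, and oocyte markers to 249 to 283 CPM and 159 to 249 CPM with 6 of 6 lower. The part of cell makeup or estrous stage, which the labels do not give, in the ovary values was not tested.

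**Figure D5:**
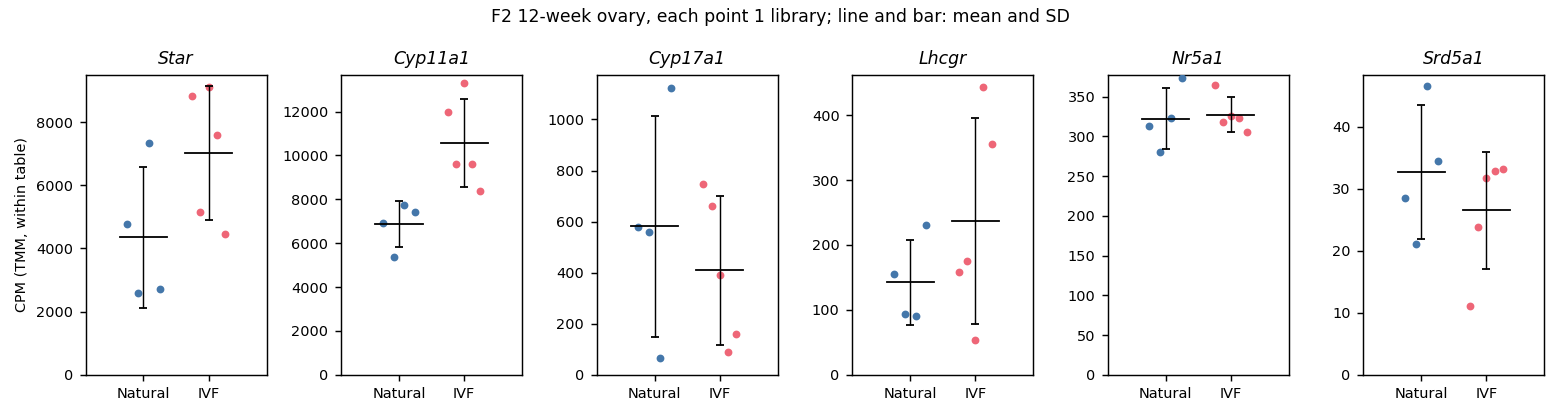
CPM (linear axes from 0) of 6 genes in the 9 F2 ovary libraries, natural and IVF, with mean and SD. Cyp11a1 is the panel where every IVF point is above every natural one.

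Liver was set beside these tissues because it does not make testosterone. Cyp11a1, Hsd17b3, Insl3, Lhcgr and Nr5a1 were too low to test in either liver table, at most 1.24 CPM in any library. Summed spermatid markers reached 113 CPM in natural male livers, with a median of 15.0 CPM, against at most 3.70 CPM in IVF male livers and 0.609 CPM in female livers, and their part in the male liver values was not tested. Cyp17a1 was 1.25, 0.590, 0.115, 1.62 and 0.504 CPM in natural male livers and 1.18, 6.21, 14.4, 12.3 and 1.52 CPM in IVF male livers, and rose by 2.76 on the log2 scale (SE 0.74, edgeR adjusted p = 0.0106). The groups overlapped in 2 IVF libraries, and without IVF 4 the difference was 1.98 with an edgeR adjusted p of 0.0698. In male liver edgeR called 1 of 3 genes tested, beside 31.1% of all genes. By adjusted p alone it was also 1 of 3, beside 34.4% of all genes, and DESeq2 called 33.6% of all. Srd5a1, which reduces steroids in liver too, was 92.2, 79.9, 86.9, 96.7 and 85.2 CPM in natural and 56.1, 55.9, 77.0, 89.7 and 90.9 CPM in IVF male livers (log2 difference -0.25, SE 0.17, edgeR adjusted p = 0.276).

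In female liver Srd5a1 was 9.13, 16.9, 22.6, 23.0 and 20.6 CPM in naturals and 22.4 to 37.0 CPM in IVF livers with a median of 31.6. It rose by 0.67 on the log2 scale (SE 0.20, edgeR adjusted p = 0.0122), with 4 of 6 IVF livers above every natural one, and was under the 1.5-fold limit at 0.53 without natural 1. In female liver 1 of 3 genes tested was called, beside 39.4% of all genes, and the groups overlapped for all 3, where 29.4% of all genes did not overlap. Cyp17a1 was 7.92 to 119 CPM in natural and 16.8 to 270 CPM in IVF female livers (log2 difference 1.17, SE 1.03, edgeR adjusted p = 0.375).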

How the data were processed

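RNA was sequenced from 72 libraries of testis, ovary and liver, in 7 count tables. Per the submitters' processing notes and methods, the authors trimmed reads with Trimmomatic 0.32, aligned them to mm10 with STAR 2.3.0e and counted RefSeq genes with featureCounts 1.5.0. The deposited values are raw counts, with 60.0 to 94.3% of values from 1 to 20 even in each library, as when both mates of a pair are counted. Libraries came from numbered samples of each group, and p-values measure the spread between them. The sample titles give no sire or litter, so F2 mice that shared a father were treated as separate samples. F2 p-values therefore do not measure the spread between sires. Each table was tested with edgeR 4.0.16 in R 4.3.3 (TMM, filterByExpr, robust quasi-likelihood fit, two-sided, Benjamini-Hochberg over all genes), with calls at an adjusted p under 0.05 and over 1.5-fold. Ages were tested on the 24107 symbols shared by the F1 tables. CPM per kilobase used GENCODE exon lengths. Promoter windows were from RefSeq. DESeq2 1.42.0, other scalings and filters, leaving out each library and a replicate block were alternatives, and the code was tested on simulated data. The members and companion lists were chosen with earlier results of these data known. All members, the companion genes called between IVF and natural in testis, and the 5 genes most like the members are named. Companion genes called in liver, between ages or for a difference of IVF effects are not all named.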

Additional observations from a re-analysis of the deposited data

Results flagged for a closer look

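Of 90 groups of 4 to 10 libraries, 6 held a library far from the others, and chance gives about 1 in 20. Hsd17b3 in F1 E18.5 IVF testis 2 was 96.2 CPM, below the 150 CPM of the next library. Cyp17a1 in F1 39-week natural testis 4 was 576 CPM, above the 297 CPM of the next. Cyp17a1 in F1 39-week IVF testis 2 was 149 CPM against 323 CPM in the next, and Lhcgr in that same testis was 1.12 CPM against 6.29 CPM. Star was at 0 CPM in F2 male liver IVF 3, the shallowest library at 543745 counts, and at 0 CPM in F2 female liver natural 1. The IVF effect on Hsd3b6 differed between F2 and F1 testes at 12 weeks by -3.285 on the log2 scale.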

How the results depend on the processing

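Members called moved from 0 to 1 in F1 12-week testis with no fold limit or with DESeq2 and in ovary with DESeq2, and from 1 to 0 in male liver with at least 10 counts in every library, where Cyp17a1 was no longer tested. Leaving out 1 library gave 0 to 1 called in F2 testis (1 without IVF 2), male liver (0 without IVF 4), female liver (0 without natural 1) and between 39 and 12 weeks (1 without 39-week natural 4). Pairs of members with an adjusted p under 0.05 numbered 2 in F1 12-week, 1 in 39-week and 1 in F2 testes alone, where fewer libraries entered, against 7. In all, 308 recomputed counts stayed within 1.5 times the value reported and 11 did not, and 69 log2 values changed sign, none of a called gene. The cause of the sign changes was not tested.

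Scaling to the library total gave -0.00366 for Lhcgr in F1 12-week testis, 0.028 for Cyp17a1 in 39-week testis, -0.031 for Nr5a1 in ovary, and between 12 weeks and E18.5 -0.73 for Cyp17a1 and -0.20 for Srd5a1. At least 10 counts gave -0.00284 for Lhcgr in F1 12-week testis. DESeq2 and its size factors gave 0.0019 and 0.0012 for Srd5a1 in F1 12-week testis and -0.0081 and -0.0091 for Hsd17b3 at 39 weeks. Summing the close library pairs, chosen after seeing the data, gave -0.16 for Hsd17b3 and -0.087 for Lhcgr at 39 weeks and 0.027 for Nr5a1 in F2 testis.

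Whether the replicate numbers pair the samples is not given. Between libraries of the same number, 0 pairs correlated over 0.1 in 5 of the 7 tables, 2 of 4 did at 39 weeks and 1 of 5 in female liver. At 39 weeks r ran from -0.23 to 0.30. With 4 or 5 pairs per table, this cannot settle whether samples shared a litter or batch. The replicate block gave -0.13 for Lhcgr in F1 12-week testis, 0.087 for Cyp11a1 and -0.061 for Lhcgr at 39 weeks, 0.022 for Nr5a1 in F2 testis, 0.073 for Cyp17a1 in ovary and -0.032 for Cyp11a1 between 39 and 12 weeks. With the block, calls over all genes went from 34 to 2 at E18.5, 40 to 8 at 12 weeks, 2 to 4 at 39 weeks and 196 to 144 in F2 testis, and members called between 12 weeks and E18.5 from 6 to 5, where Star came to -0.51 (edgeR adjusted p = 0.0489), under the fold limit. The block also ended the call of Hsd3b1 in F2 testis (0.94, edgeR adjusted p = 0.0601) and put Insl3 in F1 12-week testis at an adjusted p of 0.0528. With no filter on low counts Star came to -0.64 (edgeR adjusted p = 0.0626).

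Leaving out 1 library at a time, log2 differences ran from -0.091 to 0.063 for Hsd17b3 at E18.5. At 12 weeks in F1 they ran from -0.060 to 0.22 for Star, -0.19 to 0.23 for Lhcgr and -0.14 to 0.10 for Srd5a1. At 39 weeks they ran from -0.21 to 0.23 for Cyp11a1, -0.16 to 0.32 for Cyp17a1, -0.18 to 0.39 for Hsd17b3, -0.21 to 0.63 for Lhcgr and -0.23 to 0.098 for Nr5a1. In F2 testis they ran from -0.13 to 0.020 for Star, -0.017 to 0.17 for Cyp17a1, -0.028 to 0.15 for Insl3 and -0.076 to 0.032 for Nr5a1, and in ovary from -0.88 to 0.030 for Cyp17a1 and -0.036 to 0.10 for Nr5a1. Between 12 weeks and E18.5 Cyp17a1 ran from -0.24 to 0.46, and between 39 and 12 weeks Cyp11a1 ran from -0.17 to 0.30, Hsd17b3 from -0.15 to 0.39 and Nr5a1 from -0.068 to 0.24.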
